A study of Mus musculus with 6 samples.

Results

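The transcripts of 10 human enzymes that make serine, asparagine and proline, or that pass the carbon of serine on to folate, were followed in HK-2 cells with and without overexpression of USAG-1. The 10 genes are PHGDH, PSAT1, PSPH, SHMT1, SHMT2, MTHFD1L, MTHFD2, ASNS, ALDH18A1 and PYCR1, out of 39234 genes listed, 6727 of them with 0 counts in every library, and all 10 passed the filter on low counts that left 18188 genes for testing. They were chosen by name, and with the comparison below already known: PHGDH and ASNS had been seen to be lower in USAG-1-overexpressing cells while other targets of the transcription factor ATF4 were higher. Differences between the groups in these 10 genes, and in the other ATF4 targets, are therefore a description and not a test: calls at the threshold are counted beside the share of all genes called, and support nothing. HK-2 is an immortalized line from human proximal tubule. There were 3 control libraries (Cont) and 3 libraries with USAG-1 overexpression (USAG1_OE), and the labels give the genotype of all 6 as WT. The study's methods state that overexpression in cells was by transient plasmid transfection and that the line was not authenticated by STR typing, and although it lists an empty vector among its plasmids, what the control cells of these libraries received is not stated in the sources used here. The labels name mouse as the organism, while the gene identifiers are human.

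Serine is made from the glycolytic intermediate 3-phosphoglycerate in a chain of reactions. PHGDH oxidizes it, PSAT1 adds an amino group taken from glutamate, and PSPH removes the phosphate. The serine hydroxymethyltransferases SHMT1 (cytosol) and SHMT2 (mitochondria) then split serine into glycine and a one-carbon unit that is carried on tetrahydrofolate, and MTHFD2 and MTHFD1L take this unit on to formate inside mitochondria. ASNS makes asparagine from aspartate and glutamine. ALDH18A1 and PYCR1 make proline from glutamate. Proximal tubule is known as a site of serine production in the kidney, and most of these enzymes are known targets of ATF4, the transcription factor that answers amino acid shortage and endoplasmic reticulum stress.

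The libraries held 41236194 to 48699471 counted reads in Cont and 42782931 to 45448720 in USAG1_OE. SOSTDC1, which encodes USAG-1, had 60 to 80 counts per library in Cont and 3907 to 5072 in USAG1_OE, as labelled. Of 14 markers of proximal tubule or of HK-2 cells, LRP2 had no count in any library, CUBN, AQP1 and HNF4A had at most 15 counts in a library, and KRT8 and VIM averaged 1081 and 1961 CPM in Cont. Of the 9 tested, 3 were called higher in USAG1_OE, with log2 fold changes of 0.26 (PAX8), 0.55 (GGT1) and 0.28 (CDH2), and 0 lower by edgeR, also at an unadjusted p under 0.05. Transcripts of T and NK cells stood higher in control cells: 15 of 16 such markers fell in USAG1_OE, their summed level was 121 to 138 CPM in Cont and 31.3 to 39.8 CPM in USAG1_OE, and no marker was at 0 in all libraries. The pan-leukocyte gene PTPRC was at 10.9 to 18.9 CPM and 3.01 to 5.47 CPM. Mitochondrially encoded genes took 4.80% to 5.59% of the counts in Cont and 1.504% to 1.55% in USAG1_OE. Cont replicate 3 stood apart from the other controls on the second principal component of log2 levels (a score of -54.3, against 25.2 and 28.2), and values without it are given where they matter. The part of these differences in the results below was not tested, and in bulk RNA fewer cells of a type and less RNA per cell cannot be told apart.

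Along the serine chain the enzymes moved apart. PHGDH was lower in USAG1_OE, PSPH and PSAT1 were higher, ASNS was lower, and the groups overlapped in both proline enzymes. At an adjusted p under 0.05, 2 of the 10 genes were called lower (PHGDH and ASNS) and 1 was called higher (PSPH), where 6.91% of all genes tested were called lower and 8.95% higher, 15.9% in all. For 3 genes (PHGDH, ASNS and SHMT2) all USAG1_OE libraries were below all controls, and for 2 (PSAT1 and PSPH) all were above, against 18.1% and 19.4% of all genes, or 37.6% in either direction. As the choice of genes used this comparison, nothing is read from these counts. The median log2 fold change of the 10 genes was -0.07, and that of all genes tested was -0.02.

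**Figure D1:**
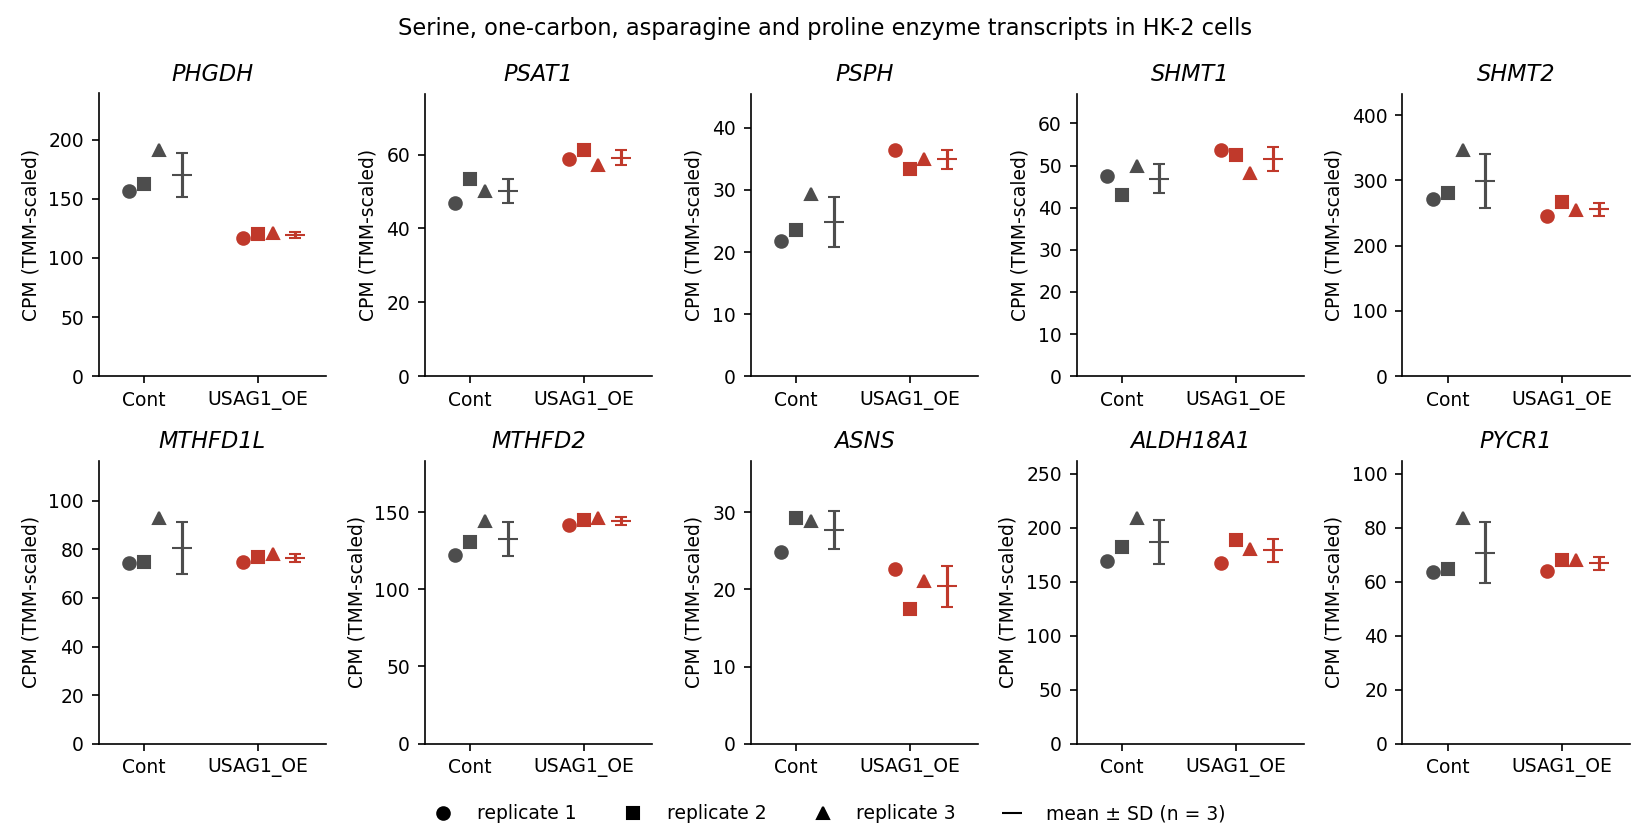
Level of each of the 10 transcripts in each library, in CPM on the TMM scale (vertical axes start at 0), for Cont and USAG1_OE; symbols give the replicate number and bars the mean ± SD (n = 3). PHGDH and ASNS are lower in all 3 USAG1_OE libraries, PSAT1 and PSPH are higher in all 3, and Cont replicate 3 is the highest control library in 8 of the 10 panels.

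PHGDH (ENSG00000092621; chromosome 1, 119648411 to 119744218, plus strand, hg38 as named in the submitters' processing notes, which is the build of all positions here) was at 157, 162 and 191 CPM in Cont replicates 1 to 3 and at 117, 120 and 121 CPM in USAG1_OE replicates 1 to 3. CPM is the count scaled to library size, here with edgeR's TMM normalization. Every USAG1_OE library was below every control, and the USAG1_OE libraries lay close together. The means were 170 ± 18.5 and 119 ± 2.31 CPM (SD, n = 3 each), or -0.51 ± 0.08 (SE) as log2 fold change and 29.8% less. This is the enzyme of the entry step of the chain.

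PSAT1 (ENSG00000135069; chromosome 9, 78297125 to 78330093), the aminotransferase of the next step, was at 46.8, 53.5 and 50.1 CPM in Cont and at 58.9, 61.2 and 57.2 CPM in USAG1_OE. All USAG1_OE libraries were above all controls by a narrow margin. The log2 fold change was 0.24 ± 0.07 (SE), just outside the adjusted threshold with all 6 libraries, and PSAT1 was called higher without Cont replicate 3 (0.24). PSPH (ENSG00000146733; chromosome 7, 56011051 to 56051467), the phosphatase that releases serine, was at 21.7, 23.5 and 29.4 CPM in Cont and at 36.4, 33.4 and 34.97 CPM in USAG1_OE. Again the groups did not overlap, and the log2 fold change was 0.49 ± 0.11 (SE), or 40.4% more. PSPH was no longer called without Cont replicate 1 (0.40) or 2 (0.45) or without USAG1_OE replicate 1 (0.46), 2 (0.52) or 3 (0.49), and it was 0.63 without Cont replicate 3.

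The opposite directions of PHGDH and its partners can be read within each library, where no scaling between libraries enters. The count ratios restate the fold changes of the genes, and PHGDH was picked for its fall, so they are no separate support. On a log2 scale, the count ratio of PHGDH to PSPH was 2.85, 2.79 and 2.70 in Cont and 1.68, 1.85 and 1.79 in USAG1_OE, a mean difference of -1.01. For PHGDH to PSAT1 the difference was -0.75 and for PHGDH to MTHFD2 it was -0.63, again with no overlap of the groups. The SD of the last ratio over the USAG1_OE libraries was 0.00427 on the log2 scale, against 0.0458 in Cont. Counting error at these depths is larger than 0.00427, so no close tracking of the 2 genes is read from it. ASNS to PHGDH, which were picked for the same direction, differed by 0.06 and overlapped, with an SD of 0.213 in USAG1_OE and 0.133 in Cont.

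**Figure D2:**
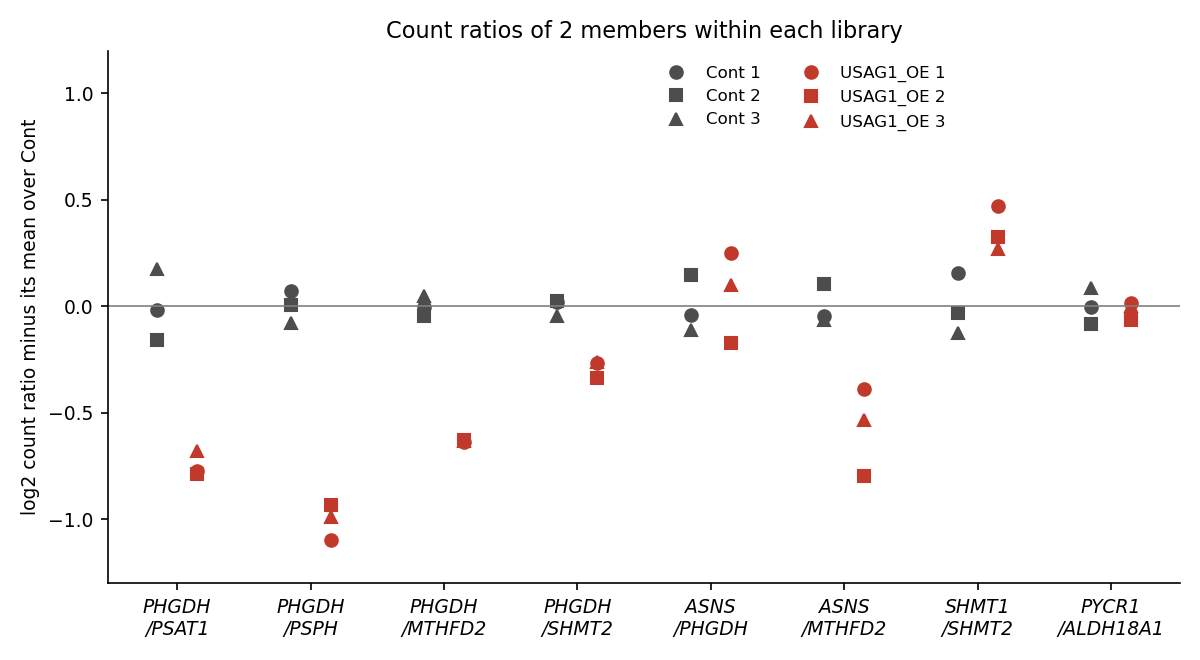
Log2 ratio of the counts of 2 of the transcripts within each library, minus the mean of that ratio over the 3 Cont libraries (vertical axis), for 8 pairs (horizontal axis); symbols give the replicate number and colours the group. The ratios of PHGDH to PSAT1, PSPH, MTHFD2 and SHMT2 are lower in all USAG1_OE libraries, whereas ASNS to PHGDH and PYCR1 to ALDH18A1 overlap.

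Neither hydroxymethyltransferase was called. SHMT2 (ENSG00000182199; chromosome 12, 57229573 to 57234935), the mitochondrial enzyme, was at 271, 281 and 346 CPM in Cont and at 246, 266 and 255 CPM in USAG1_OE, without overlap, and its log2 fold change was -0.23 ± 0.09 (SE). SHMT1 (ENSG00000176974; chromosome 17, 18327860 to 18363563), the cytosolic enzyme, was at 47.5, 43.1 and 50.0 CPM in Cont and at 53.7, 52.5 and 48.3 CPM in USAG1_OE, with overlap and a log2 fold change of 0.14 ± 0.08 (SE). The log2 count ratio of SHMT1 to SHMT2 within a library was -2.51, -2.70 and -2.79 in Cont and -2.20, -2.34 and -2.40 in USAG1_OE, which did not overlap. Without Cont replicate 3 the log2 fold change of SHMT2 was -0.10. SHMT1 overlaps SMCR8 on the other strand, a gene with more counts (188% of those of SHMT1), and the use of strand in counting is not given in the sources used here.

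In the mitochondrial folate branch both genes overlapped between the groups. MTHFD2 (ENSG00000065911; chromosome 2, 74186172 to 74217565), a dehydrogenase and cyclohydrolase, was at 122.5, 130.5 and 144.2 CPM in Cont and at 142, 145 and 147 CPM in USAG1_OE, a log2 fold change of 0.12 ± 0.07 (SE). It was called higher without Cont replicate 3 (0.20). MTHFD1L (ENSG00000120254; chromosome 6, 150865679 to 151101887), which releases formate, was at 74.4, 74.7 and 93.1 CPM in Cont and at 74.9, 76.8 and 78.1 CPM in USAG1_OE. Its log2 fold change was -0.08 ± 0.09 (SE), and 0.05 without Cont replicate 3, the control library that stands above the others here.

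ASNS (ENSG00000070669; chromosome 7, 97851677 to 97872408, minus strand) was at 24.8, 29.3 and 28.9 CPM in Cont and at 22.6, 17.4 and 21.1 CPM in USAG1_OE. All USAG1_OE libraries were below all controls, with replicate 2 the lowest. The means were 27.7 ± 2.47 and 20.4 ± 2.68 CPM (SD, n = 3 each), and the log2 fold change was -0.44 ± 0.12 (SE). ASNS was no longer called without Cont replicate 2 (-0.40) or without USAG1_OE replicate 1 (-0.52), 2 (-0.34) or 3 (-0.47).

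ASNS overlaps an entry without a symbol, ENSG00000284707 (chromosome 7, 97851688 to 97972985), which lies on the same strand and spans nearly the whole gene. How reads shared by both were assigned is not given in the sources used here. The entry runs on beyond ASNS, so its reads may also come from outside the gene. This entry had 304, 244 and 592 counts in Cont and 56, 314 and 222 in USAG1_OE, or between 5.39% and 48.1% of the counts of ASNS in the same library. The share of ENSG00000284707 was lowest in USAG1_OE replicate 1, where ASNS was the highest of its group. It was highest in Cont replicate 3, where ASNS was not the lowest of its group. With both entries added, a step chosen after these values were seen, the level was 32.1, 34.3 and 42.8 CPM in Cont and 23.8, 24.6 and 26.3 CPM in USAG1_OE. From ASNS alone to the sum, the SD went from 2.47 to 5.62 CPM in Cont and from 2.68 to 1.253 CPM in USAG1_OE, and the log2 fold change from -0.44 to -0.55 ± 0.11 (SE).

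**Figure D3:**
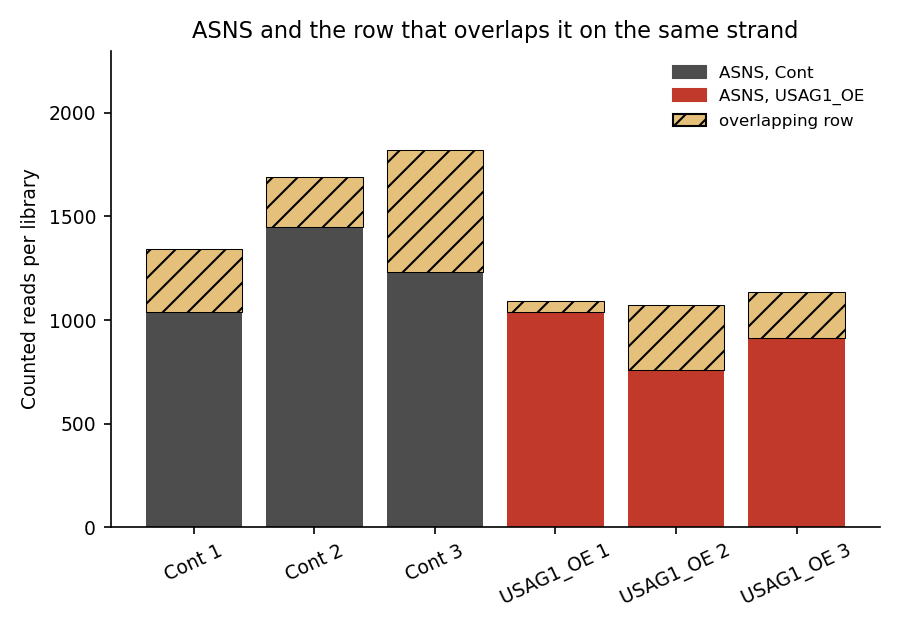
Counted reads (vertical axis, from 0) of ASNS in each of the 6 libraries, with the reads of the overlapping entry ENSG00000284707 stacked on top. The overlapping entry holds 56 to 592 reads, and the sum lies between 1341 and 1823 reads in Cont and between 1074 and 1134 reads in USAG1_OE.

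The proline enzymes differed little between the groups. ALDH18A1 (ENSG00000059573; chromosome 10, 95605941 to 95656711), which turns glutamate into the precursor of proline, was at 169, 182 and 209 CPM in Cont and at 168, 189 and 180 CPM in USAG1_OE. PYCR1 (ENSG00000183010; chromosome 17, 81932384 to 81941079), the mitochondrial reductase of the final step, was at 63.5, 64.7 and 83.7 CPM in Cont and at 63.9, 68.15 and 68.12 CPM in USAG1_OE. The groups overlapped in both genes. Their log2 fold changes were -0.06 (95% interval -0.26 to 0.14) and -0.08 (95% interval -0.33 to 0.16), so differences within these intervals are not excluded. Without Cont replicate 3 they were 0.03 and 0.06.

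One control library stood above the others in this set. Each of the 10 genes was above its control mean in Cont replicate 3, by a median of 0.17 on the log2 scale, where 49.8% of all genes were above theirs in that library. It was the highest control in 8 of the 10 genes (PSAT1 and ASNS were highest in Cont replicate 2), against 40.3% of all genes. The coefficient of variation was 6.68% to 16.1% among the controls and 1.74% to 13.2% in USAG1_OE, and ASNS was the one gene that varied more in USAG1_OE. Without Cont replicate 3, 2 of the 10 genes were called lower and 3 higher (PSPH, PSAT1 and MTHFD2), where 11.2% and 15.8% of all genes were, 27% in all.

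**Figure D4:**
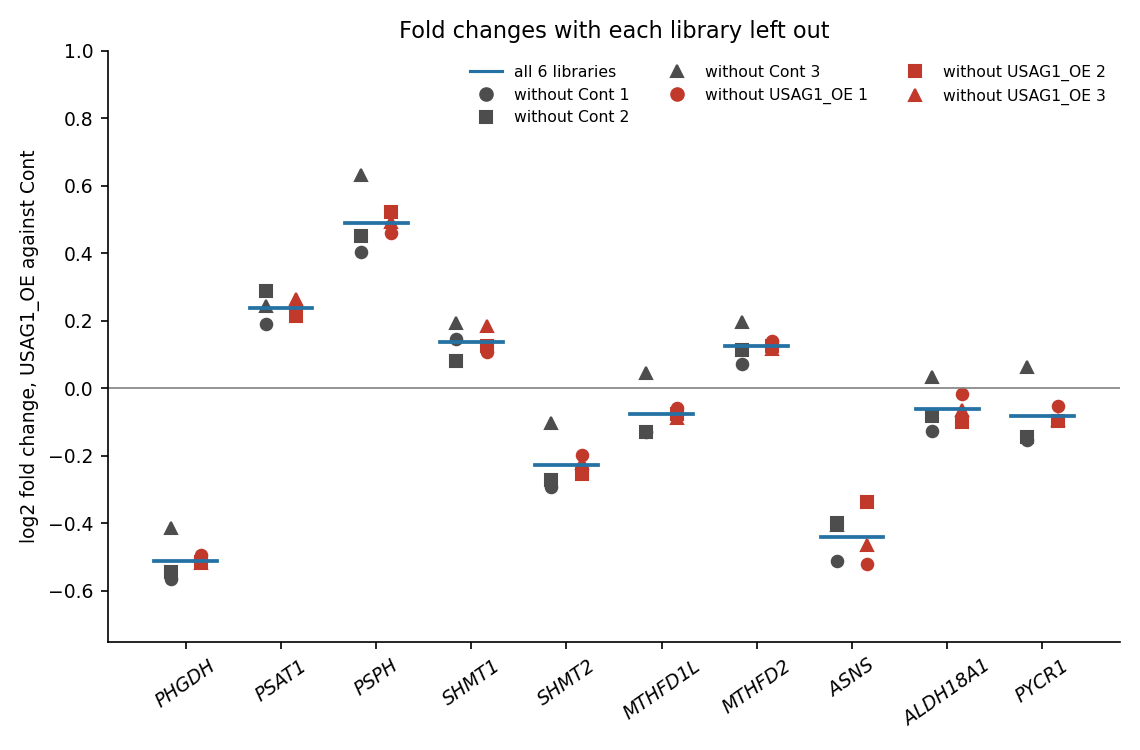
Log2 fold change of each of the 10 transcripts, USAG1_OE against Cont (vertical axis), with all 6 libraries (blue line) and with each library left out (symbols for the replicate left out, colours for its group). Leaving out Cont replicate 3 moves MTHFD1L, ALDH18A1 and PYCR1 across 0, whereas PHGDH stays between -0.57 and -0.41.

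Further enzymes of the same pathways were counted from lists of genes typed from general knowledge. Of 19 other folate and one-carbon enzymes tested, 1 was called higher and 1 lower (5.26% each), where 8.95% and 6.91% of all genes were. The median log2 fold change of the 19 was 0.04. Without Cont replicate 3, 6 of the 19 were called higher and 3 lower, where 15.8% and 11.2% of all genes were. With all libraries, DESeq2 also called 3 of the 19 lower, and 1726 of all genes, against 1256 by edgeR. MTHFD2L, the close relative of MTHFD2, fell from 7.00 ± 0.942 to 4.36 ± 0.467 CPM (SD, n = 3 each), or -0.68 ± 0.16 (SE) as log2 fold change, at an adjusted p of 0.0256. MTHFD2L lost this call without Cont replicate 1 (-0.61) or 2 (-0.64) or USAG1_OE replicate 1 (-0.61), 2 (-0.67) or 3 (-0.76), and with the replicate block (a term for the replicate number). The cytosolic trifunctional enzyme MTHFD1 had a log2 fold change of 0.08 ± 0.07 (SE) and was called higher without Cont replicate 3 (0.16). That of ALDH1L2, the mitochondrial formyltetrahydrofolate dehydrogenase, was 0.24 ± 0.12 (SE). ALDH1L2 overlaps NOPCHAP1 on the other strand, which had 638 to 995 counts in Cont and 416 to 455 in USAG1_OE (73.6% of those of ALDH1L2). ALDH1L1, the cytosolic relative of ALDH1L2, had no count in any library.

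Among 15 genes of glycine cleavage and of serine use, 3 were called higher (20%) and none lower by edgeR's test, where 8.95% and 6.91% of all genes were. At an unadjusted p under 0.05, 1 was lower (SPTLC1, -0.19, named after its values were seen), and 1 was called lower by DESeq2, with the offset for genomic span and without Cont replicate 3. Over all genes, these fits called 1726, 1166 and 2106 lower. GLDC, the decarboxylase of the glycine cleavage system, rose from 9.30 ± 1.06 to 13.7 ± 0.539 CPM (SD, n = 3 each), or 0.56 ± 0.12 (SE) as log2 fold change, at an adjusted p of 0.0150. DLD, the lipoamide dehydrogenase shared by that system and other complexes, had a log2 fold change of 0.23 (adjusted p = 0.0478). SPTLC3, a subunit of the enzyme that joins serine to a fatty acid in sphingolipid synthesis, had one of 0.67 (adjusted p = 0.0301). Without Cont replicate 2, GLDC (0.54) and DLD (0.23) were not called, without Cont replicate 1, DLD (0.23) and SPTLC3 (0.64) were not, and without any single USAG1_OE replicate no gene of these 3 was, at 0.54 to 0.59 for GLDC, 0.18 to 0.26 for DLD and 0.62 to 0.71 for SPTLC3. DLD and SPTLC3 also lost theirs with no filter on low counts, and DLD with limma-voom, DESeq2's size factors or the replicate block.

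On the asparagine and aspartate side, 2 of 13 enzymes tested were called higher and 2 lower (15.4% each), where 8.95% and 6.91% of all genes were. Of the 13, 6 were called higher without Cont replicate 3, where 15.8% of all genes were, and 0 without any other single library. The number of the 13 called lower was 1 without any single library other than Cont replicate 3. Over all genes, leaving out such a library gave 630 to 1087 called higher and 507 to 830 lower, against 1628 and 1256 with all libraries. ASRGL1, which breaks asparagine down, rose (log2 fold change 0.34 ± 0.09, SE, adjusted p = 0.0354), as did GOT1, the cytosolic aminotransferase that links aspartate and glutamate (0.35 ± 0.08, SE, adjusted p = 0.0203). ASS1, which uses aspartate to make argininosuccinate, fell from 38.7 ± 4.14 to 27.2 ± 0.372 CPM (SD, n = 3 each), or -0.51 ± 0.09 (SE) as log2 fold change, at an adjusted p of 0.00671. Asparaginase ASPG, at about 1 CPM, had a log2 fold change of -0.19 ± 0.37 (SE). ASS1 kept its call with each library left out. The calls of ASRGL1 (0.31 to 0.36) and GOT1 (0.28 to 0.37) were lost without Cont replicate 1 or 2 and without any single USAG1_OE replicate, and that of ASRGL1 also with no filter on low counts, the replicate block or the offset for genomic span.

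Of 10 other proline and ornithine genes tested, 1 was called higher (10%) and 2 lower (20%), where 8.95% and 6.91% of all genes were. Without Cont replicate 3, 5 of these 10 were called higher, where 15.8% of all genes were. None of these 10 was called lower by edgeR without any single USAG1_OE replicate, where 507 to 597 of all genes were, against 1256 with all libraries. PRODH (ENSG00000100033; chromosome 22, 18912777 to 18936553), the mitochondrial dehydrogenase that starts proline breakdown, was at 3.78, 4.11 and 3.75 CPM in Cont and at 10.1, 11.4 and 10.3 CPM in USAG1_OE. Every USAG1_OE library was well above every control, the log2 fold change was 1.45 ± 0.13 (SE; adjusted p = 5.31e-04), and the call held with each library left out. ALDH4A1, which completes that breakdown to glutamate, fell by 0.30 ± 0.08 on the log2 scale (SE; adjusted p = 0.0314), and P4HA2, a subunit of a prolyl hydroxylase for collagen, by 0.38 ± 0.08 (SE; adjusted p = 0.0157). Both lost their calls without any single USAG1_OE replicate (-0.32 to -0.29 for ALDH4A1 and -0.38 to -0.37 for P4HA2), and ALDH4A1 also without Cont replicate 1 (-0.33) or 2 (-0.31), with no filter on low counts or with the replicate block. PYCR3, a cytosolic relative of PYCR1, was not called, with a log2 fold change of -0.39 ± 0.14 (SE), and neither was OAT (0.05 ± 0.11, SE), which makes the same precursor from ornithine. Without Cont replicate 3, PYCR3 was at -0.21 and OAT was called higher (0.19), and DESeq2 called PYCR3 lower.

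**Figure D5:**
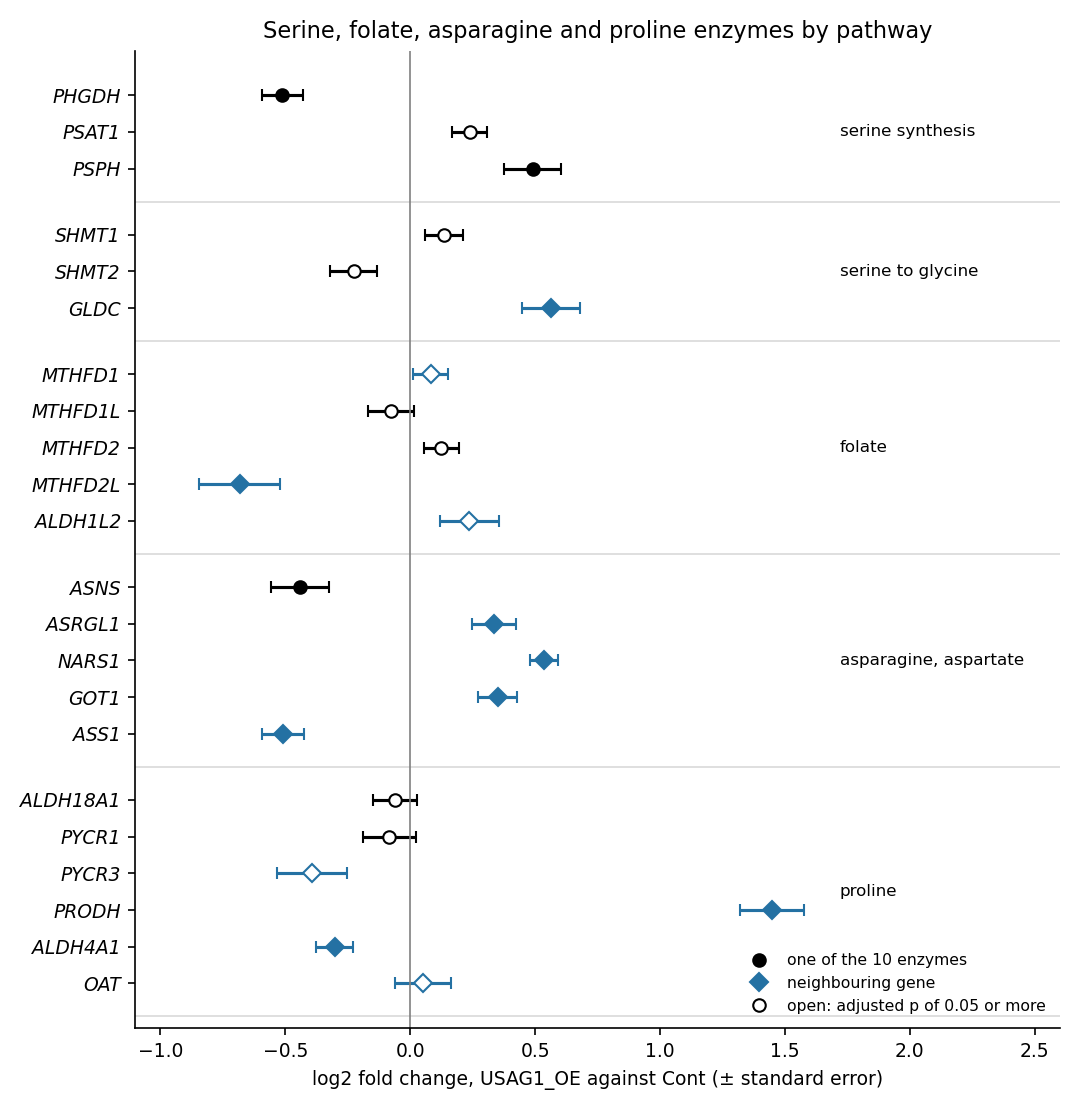
Log2 fold change, USAG1_OE against Cont (horizontal axis, with its standard error), of the 10 enzymes (black circles) and of neighbouring genes (blue diamonds), grouped by pathway; open symbols have an adjusted p of 0.05 or more. Values run from -0.68 (MTHFD2L) to 1.45 (PRODH), and within serine synthesis from -0.51 (PHGDH) to 0.49 (PSPH).

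The other ATF4 targets give the setting in which PHGDH and ASNS were picked. Of 34 such genes tested, ATF4 included, 15 were called higher (44.1%) and 3 lower (8.82%), where 8.95% and 6.91% of all genes were. The median log2 fold change of the 34 was 0.14. Their direction was part of the choice of the 10 genes, so nothing is read from these counts. ATF4 itself had a log2 fold change of 0.23 ± 0.06 (SE), a call lost without Cont replicate 1 (0.20) or 2 (0.23) or USAG1_OE replicate 1 (0.26), 2 (0.23) or 3 (0.22). The log2 fold change was 1.29 for SLC7A11, the cystine transporter, 1.08 for GDF15, a stress-induced secreted factor, 1.05 for CHAC1, a glutathione-degrading enzyme, and 1.01 for ATF3, a stress transcription factor. It was 0.70 for TRIB3, a pseudokinase that restrains ATF4, 0.82 for JDP2, a relative of ATF3, and 0.61 for DDIT3, the transcription factor CHOP. DDIT3 overlaps MARS1 and MBD6 on the other strand, both with more counts. Its call was lost without USAG1_OE replicate 2 (0.60) or 3 (0.53), and that of CHAC1 without USAG1_OE replicate 2 (0.96).

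NARS1, which charges the asparagine transfer RNA and so uses the product of ASNS, was at 178 ± 4.38 CPM in Cont and 257 ± 11.5 CPM in USAG1_OE (SD, n = 3 each), or 0.54 ± 0.06 (SE) as log2 fold change. That of AARS1, which charges the alanine transfer RNA, was 0.56, and that of SLC38A2, a transporter of small neutral amino acids, was 0.46. The 3 genes of the list called lower, named after their values were seen, were the amino acid transporters SLC7A5 (-0.45) and SLC1A4 (-0.25) and the growth factor VEGFA (-0.37). Called or not, 9 of the 34 had a log2 fold change below 0 and 25 above. The number of the list called lower was 0 without USAG1_OE replicate 3, 1 without Cont replicate 1 or 2 or USAG1_OE replicate 1 or 2, and 5 without Cont replicate 3. The number called higher was 8 without USAG1_OE replicate 2 and 10 to 20 without any other library. Over all genes, these fits called 507 to 2106 lower and 630 to 2985 higher.

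Profiles across the 6 libraries were compared with those of PHGDH and ASNS among 11100 other genes with at least 5 CPM on average, by the root-mean-square difference of log2 levels centred on each gene's mean. Nearest to PHGDH was ASS1 (0.00532 on the log2 scale), followed by CTNNBIP1 (0.0299), an inhibitor of beta-catenin. ASS1 had 1188 to 1854 counts per library, at which counting error is larger than 0.00532. The smallest of 11100 differences therefore does not show that ASS1 tracks PHGDH exactly. ASS1 was at 35.8, 37.0 and 43.5 CPM in Cont and at 26.8, 27.3 and 27.5 CPM in USAG1_OE, so Cont replicate 3 was highest in both genes. Nearest to ASNS were GDF6 (0.0335), a BMP family ligand, RGS12 (0.0571) and RASSF4 (0.0599), both signalling regulators. The measure takes in the shift between the groups, which PHGDH and ASNS were picked for.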

How the data were processed

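RNA from 6 HK-2 libraries was sequenced as strand-specific, oligo(dT)-selected libraries with paired reads, per the labels. The authors deposited 1 table of whole-number counts per gene, not normalized, although its name speaks of FPKM. The submitters' processing notes name cutadapt 1.9, FastQC and the build hg38, and the aligner, counting tool and annotation are not given in the sources used here. Groups and replicate numbers were taken from sample titles, and although the study reports biological replicates for most of its experiments, the sources used here do not say that these libraries came from separate cultures, so p-values measure the spread between libraries, which may be technical. No library was a copy of another (chi-square per degree of freedom at least 6.79).

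Counts were filtered by filterByExpr, scaled by TMM and tested by the quasi-likelihood test of edgeR 4.0.16 (R 4.3.3), with Benjamini-Hochberg adjustment over 18188 genes and a threshold of 0.05 at any fold. Each standard error (SE) was derived from the F statistic of that test. DESeq2 1.42.0 and limma 3.58.1 were alternatives. So were other scalings and filters, a term for the replicate number, an offset for the trend of fold change with the genomic span of a gene, and leaving out each library. In simulated libraries of 17708 genes, 54.7% of 106 genes changed by 1 and 89.7% of 87 changed by 2 on the log2 scale were recovered, with 6.21% of calls false. The fold changes of the 10 genes were smaller (-0.51 to 0.49), and recovery at such sizes was not simulated. The simulation also gave fewer calls (145) than the data (2884), so its share of false calls need not hold for them. A count of 0 allows up to 3 counts, 0.0607 to 0.0718 CPM, for counting error only. Log2 levels used a prior count of 2.

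The 10 genes, the lists and the tests were chosen with earlier results of these data known. Named genes were all 10, up to 8 called genes per list with the smallest p, partner enzymes and ATF4 targets set by name, SOSTDC1, and the 3 nearest profiles to PHGDH and to ASNS. Levels were not compared between genes, since transcript lengths were not used here. The reference at hand was a mouse one, so no sequence is printed. Some genes that these rules name are not reported here, although the counts over the lists include them.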

Additional observations from a re-analysis of the deposited data

How the results depend on the processing

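The log2 fold changes of PHGDH, PSAT1, PSPH, SHMT1, SHMT2, MTHFD2 and ASNS kept their direction in all 16 alternatives, and those of MTHFD1L, ALDH18A1 and PYCR1 changed sign in 1 each, without Cont replicate 3. Called higher were 2 of the 10 genes, PSPH and PSAT1, with library sizes alone, mitochondrially encoded genes left out, DESeq2's Wald test or at least 10 counts in every library. Over all genes, 1720, 1664, 2035 and 1674 were called higher in these fits, against 1628 in the unaltered edgeR fit. Called lower was 1, PHGDH, with no filter on low counts or with the replicate block. Over all genes, 867 and 1029 were called lower in these fits, against 1256 in the unaltered edgeR fit. At an adjusted p under 0.01 in edgeR, 0 of the 10 were higher and 1 lower, where 635 and 469 of all genes were. At an unadjusted p under 0.05 in edgeR, 2 of the 10 were higher and 3 lower, where 2874 and 2678 of all genes were. With 1 library left out, the 10 genes gave 0 to 3 higher and 1 to 2 lower, all genes 630 to 2985 and 507 to 2106, and the 5 lists together 10 to 41 and 1 to 13, from 22 and 8 with all libraries. For every one of these, leaving out Cont replicate 3 gave the largest count, though Cont replicate 1 also gave 2 lower among the 10. The lists had 11 higher and 2 lower at an adjusted p under 0.01, and 14 lower with DESeq2, 5 with no filter and 4 with the replicate block. All genes called lower in the last 3 settings were 1726, 867 and 1029. Libraries of equal replicate number had correlations of their deviations of 0.137, -0.131 and 0.187, and Cont replicate 2 was closest to USAG1_OE replicate 1 (0.352). With 3 libraries per group these values show no clear pairing by replicate number and cannot exclude a shared batch. Summed platelet and erythroid transcripts were at 108.8 CPM in Cont replicate 2 and 76.8 CPM in USAG1_OE replicate 1. In the other libraries they were at 8.19 to 19.7 CPM, and the origin of this difference was not tested. With the block 2381 genes were called, against 2884. Fewer libraries or tested genes enter some of these fits; otherwise the cause was not tested. The fewest counts of any of the 10 genes in a library were 760, so in Cont counting depth limits their levels less than the spread between libraries. In USAG1_OE, where the coefficient of variation went down to 1.74%, counting error can make up a large part of the spread. Some count ratios also had an SD below counting error. They include PHGDH to MTHFD2 (0.00427) and MTHFD2 to MTHFD1L (0.00599) in USAG1_OE, and MTHFD2 to MTHFD1 (0.00879) in Cont.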
